A study of Mus musculus with 13 samples.

Results

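The 10 genes described here, Cfd, Adipoq, Retn, Retnla, Lep, Fabp4, Plin1, Cidec, Lpl and Pparg, are genes of the adipocyte, the fat-storing cell. They were taken as every probe on the array whose printed gene name equals one of these symbols, which gave 13 probes among the 55681 probes of the array. Of the 10 genes, 9 passed the filter on dim probes and were tested among 25393 genes, while Lep did not pass it. Retnla and Pparg are also active in cells other than adipocytes, Retnla in alternatively activated macrophages and gut epithelium and Pparg in the differentiated epithelium of the colon.

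All mice were CDX2P-NLS Cre;Apc+/loxP (CPC-Apc) animals, in which Cre driven by the CDX2 promoter deletes a loxP-flanked allele of the tumor suppressor Apc in intestinal epithelium, so that normal and tumor samples come from mice of the same genotype. The microRNA mice received 25 µg of each of miR-200c, the a, b, c and d members of miR-302, and both strands (3p and 5p) of miR-369. Super carbonate apatite particles carried them through the tail vein in 24 injections, 3 per week, beginning at the age of 8 weeks. The control mice were labelled only by genotype, with NC in their description, and the protocol names a negative control microRNA on the same particles. Colorectal tissue was divided at sacrifice, and the 13 arrays were 2 of microRNA-treated tumors and 7 of control tumors, then 2 of microRNA-treated normal tissue and 2 of control normal tissue. The labels tie no array to a mouse and give neither the depth of the gut wall nor the stretch of colon sampled, so p-values measure only the spread between these samples. In the file names control tumors 4 to 7 share the number 6 and control tumors 1 and 2 share 5. Control tumor 3 shares 10 with control normal 2. What these numbers stand for is not stated, so the 7 control tumors cannot be taken as 7 independent animals.

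White adipocytes keep their triglyceride in a single large droplet. Plin1 and Cidec sit on the surface of that droplet, Lpl frees fatty acids from circulating lipoproteins, Fabp4 carries them inside the cell, and Pparg is the nuclear receptor that drives the fat cell program. Adipocytes also secrete hormones, among them adiponectin (Adipoq), leptin (Lep), resistin (Retn) and adipsin (Cfd). Around the colon they lie in the mesentery and outside the muscle wall, so whether they enter a sample depends on how the tissue was trimmed.

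Every level below is the log2 processed intensity of a gene's brightest probe minus the log2 of the array's 75th percentile, so 0 is the 75th percentile and each step of 1 is a doubling. That percentile was 414.8 to 739.6 on the tumor arrays and 213.9 to 319.6 on the normal arrays, and the share of probes well above background was 50.7% to 57.0%. Slide 1 held 8 arrays and slide 2 held 5, and both control normal arrays were on slide 2. Tumors were compared with normal tissue in limma, and an adjusted p under 0.05 was called a change. Over both treatments 31.4% of all genes were called, 19.7% as lower in tumors and 11.7% as higher, with a median log2 difference of -0.11. Of all called genes 37.3% were higher, a share that became 51.6% after quantile normalization, 50.8% with median scaling, 21.8% with normexp correction, 24% with no filter and 95.5% with no scaling between arrays, where the median of all genes was 0.89.

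Over both treatments all 9 tested adipocyte genes fell in tumors. The fitted log2 differences against normal tissue were between -2.17 and -1.54 for Fabp4, Pparg and Lpl, and between -8.72 and -4.61 for Cfd, Retnla, Adipoq, Cidec, Plin1 and Retn. In 7 of the 9 genes every tumor array lay below every normal array, which was so for 10.5% of all genes. For Lpl, 1 of the 7, this did not hold on its other probe. Plin1 was well above background on the 4 normal arrays and on 0 of the 9 tumor arrays. It thus passed the filter through normal tissue alone and had to differ. Cfd and Adipoq were well above background on the 4 normal arrays and 1 tumor. The filter asked for 2 arrays, so they too passed it only through normal tissue. Plin1, Cfd and Adipoq add no support to the count of 9, to the 7 without overlap, or to later counts of called members. Where tumors were not well above background the fitted difference is not an exact size, and the sizes of these genes are not ranked. In whole tissue, fewer adipocytes and less RNA of these genes per adipocyte cannot be told apart.

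**Figure D1:**
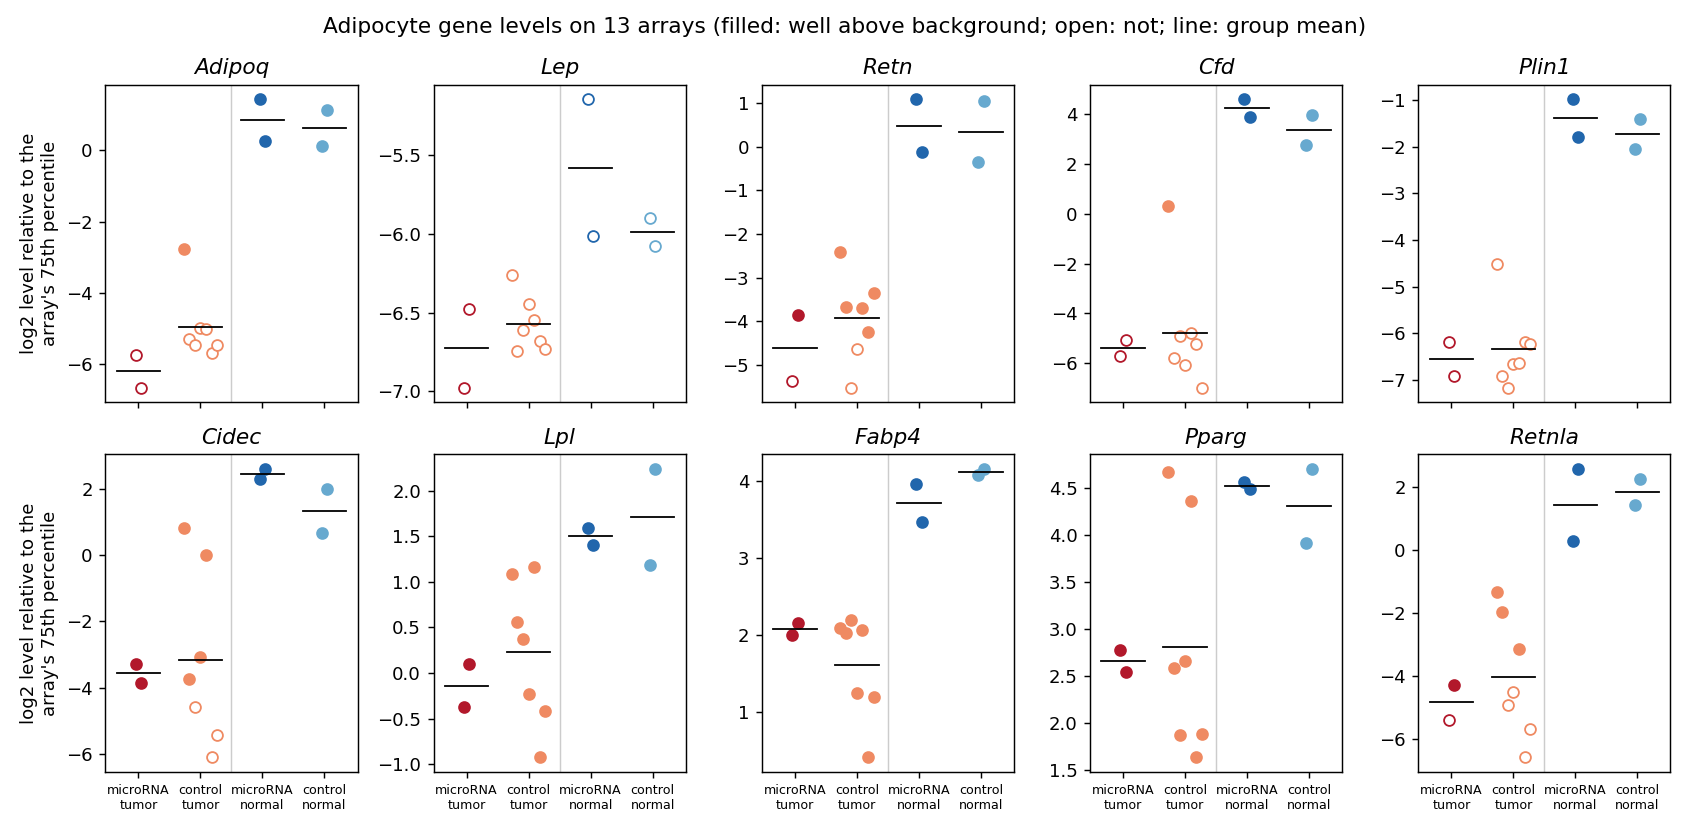
Each point is 1 array, the y axis is the log2 level relative to the array's 75th percentile, and the x axis gives the 4 groups. Filled points were well above background, open points were not, and lines are group means. For Adipoq, Cfd and Plin1 nearly all tumor points are open and all normal points are filled, and Lep is open on all 13 arrays.

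Adipoq encodes adiponectin, a hormone made almost only by adipocytes. Its levels were -5.73 and -6.67 in the microRNA-treated tumors, ran from -5.69 over a median of -5.30 to -2.77 in the 7 control tumors, were 1.43 and 0.27 in microRNA-treated normal tissue, and were 0.13 and 1.13 in control normal tissue. The highest tumor, control tumor 1, stood well above the other 8 and still below the lowest normal array. Tumors differed from normal tissue by -6.16 with an SE of 0.53 (adjusted p = 4.28e-05). It was -7.05 in microRNA mice, where the tumors were not well above background and the bound on the fall is at least 51.8-fold (adjusted p = 0.00169), and -5.59 in control mice (adjusted p = 0.000576). Since Adipoq passed the filter only through normal tissue, these p-values are descriptions.

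The Adipoq probe, shown because it defines what was measured, lies at chr16:23157576-23157635 on the plus strand of mm9.

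Adipoq probe A_51_P458451: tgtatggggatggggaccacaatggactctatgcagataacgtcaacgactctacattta

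Retn encodes resistin, a small secreted protein that in mice comes mainly from fat cells. Its levels were -5.38 and -3.85 in the microRNA-treated tumors, ran from -5.53 over a median of -3.69 to -2.42 in the control tumors, were 1.09 and -0.12 in microRNA-treated normal tissue, and were -0.35 and 1.05 in control normal tissue. No tumor reached the lowest normal array, and control tumor 1 was again the highest tumor. The difference between tumor and normal tissue was -4.61 with an SE of 0.54 (adjusted p = 0.000265). The other Retn probe gave -4.80, with an SE of 0.41.

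Retn was lower in tumors within microRNA mice (-5.10, SE 0.88, adjusted p = 0.0123) and within control mice (-4.29, SE 0.71, adjusted p = 0.0043). The probe that gave the second value for the gene, printed because both probes were tested, lies at chr8:3657312-3657371 on the plus strand of mm9 and targets the RefSeq transcript of Retn.

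Retn probe A_55_P1984806: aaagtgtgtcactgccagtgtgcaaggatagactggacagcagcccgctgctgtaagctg

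Lep encodes leptin, the hormone by which fat stores are signalled to the brain. Its probe was spotted 10 times, and 0 of the 10 spots were well above background on any of the 13 arrays. The measured levels were -6.98 and -6.48 in microRNA-treated tumors and -6.75 to -6.26 in control tumors, against -5.15 and -6.01 in microRNA-treated normal tissue and -5.90 and -6.08 in control normal tissue. Leptin RNA was thus not detectable at this signal in tumor or in normal tissue, although other adipocyte hormones were well above background in all 4 normal samples. No fold is given for it.

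Cfd encodes adipsin, the serine protease that starts the alternative complement pathway and one of the most abundant products of mouse fat. Its levels were -5.72 and -5.08 in the microRNA-treated tumors, ran from -6.98 over a median of -5.23 to 0.33 in the control tumors, were 4.59 and 3.88 in microRNA-treated normal tissue, and were 2.76 and 3.96 in control normal tissue. Control tumor 1 was the single tumor with Cfd well above background, and it lay below all 4 normal arrays. The fitted tumor effect was -8.72 with an SE of 1.07 (adjusted p = 0.000326), a value that rests on dim readings in the other 8 tumors. In microRNA mice Cfd was at least 540-fold lower in tumors (adjusted p = 0.0142), and in control mice the difference was -8.13 (SE 1.39, adjusted p = 0.00511). Cfd passed the filter only through normal tissue, so its p-values are descriptions.

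Retnla encodes a resistin-like protein secreted by adipose tissue, alternatively activated macrophages and gut epithelium. Its levels were -5.39 and -4.28 in the microRNA-treated tumors, ran from -6.57 over a median of -4.50 to -1.31 in the control tumors, were 0.29 and 2.58 in microRNA-treated normal tissue, and were 1.44 and 2.26 in control normal tissue. It was well above background in 4 of the 9 tumors, all of them lower than every normal sample. The tumor effect was -6.02 with an SE of 0.91 (adjusted p = 0.00116). In microRNA mice the difference was -6.27 (adjusted p = 0.0474), a call lost when any of 9 of the 13 arrays was left out.

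Plin1, perilipin, coats the lipid droplet and guards it from lipases. Its levels were -6.18 and -6.90 in the microRNA-treated tumors, ran from -7.16 over a median of -6.63 to -4.52 in the control tumors, were -0.98 and -1.79 in microRNA-treated normal tissue, and were -2.04 and -1.40 in control normal tissue. No tumor was well above background, so the size is given as a bound, at least 8.36-fold lower in tumors. The fitted difference was -4.82 (SE 0.43, adjusted p = 4.85e-05), and since the filter was passed through normal tissue alone, this p is a description. The bounds were at least 11-fold lower in microRNA mice (adjusted p = 0.00372) and at least 7.11-fold lower in control mice (adjusted p = 0.000708).

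Cidec, which fuses small droplets into a large one, had the widest spread among tumors, with an SD of 2.31 over the 9 arrays, against 2.08 for Cfd, the next widest. Its levels were -3.27 and -3.85 in the microRNA-treated tumors, ran from -6.12 over a median of -3.74 to 0.84 in the control tumors, were 2.32 and 2.62 in microRNA-treated normal tissue, and were 0.67 and 2.01 in control normal tissue. Control tumor 1 at 0.84 exceeded control normal 1 at 0.67, and control tumor 5 followed at 0.02, so the groups overlapped. For tumor against normal tissue the difference was -5.10 with an SE of 1.18 (adjusted p = 0.00837), and the other probe gave -3.70 with an SE of 0.95. Neither group of mice passed alone, with -6.03 in microRNA mice (adjusted p = 0.106) and -4.50 in control mice (adjusted p = 0.0608). Cidec was called in microRNA mice with normexp correction (adjusted p = 0.038) and in a fit of the compared groups alone (adjusted p = 0.00595). In control mice it was called with normexp correction (adjusted p = 0.0247), on slide 2 alone (adjusted p = 0.0176), and without control tumor 1 (adjusted p = 0.0186) or control tumor 5 (adjusted p = 0.0352).

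The other Cidec probe is printed because both probes fell while their differences were unequal in size. It lies at chr6:113378116-113378175 on the minus strand of mm9.

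Cidec probe A_55_P1969128: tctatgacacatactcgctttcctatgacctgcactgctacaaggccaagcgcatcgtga

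Lpl encodes lipoprotein lipase, which adipocytes, muscle and macrophages secrete to the vessel wall. Its levels were -0.38 and 0.10 in the microRNA-treated tumors, ran from -0.93 over a median of 0.37 to 1.16 in the control tumors, were 1.60 and 1.41 in microRNA-treated normal tissue, and were 1.19 and 2.24 in control normal tissue. On the brightest probe the groups were separated only by 1.16 in control tumor 5 against 1.19 in control normal 1. On the other probe they overlapped, with control tumors 1 and 5 at -0.89 and -0.61 against -1.34 in control normal 1. Between tumor and normal tissue Lpl differed by -1.54 with an SE of 0.38 (adjusted p = 0.0113), and -1.58 with an SE of 0.50 on the other probe. Without control normal 2 the difference was -1.32 and no longer passed (adjusted p = 0.0675), and with no scaling between arrays it was -0.55 (adjusted p = 0.26).

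The other Lpl probe lies at chr8:71425050-71425109 on the plus strand of mm9, and is shown as the one whose difference was nearly equal to that of the brighter probe.

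Lpl probe A_52_P257812: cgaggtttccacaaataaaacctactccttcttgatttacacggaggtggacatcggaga

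Fabp4, the fatty acid carrier of adipocytes, is also present in capillary endothelium and macrophages. Its levels were 1.99 and 2.15 in the microRNA-treated tumors, ran from 0.41 over a median of 2.03 to 2.19 in the control tumors, were 3.95 and 3.46 in microRNA-treated normal tissue, and were 4.07 and 4.16 in control normal tissue. It stayed well above background in all 9 tumors, and every tumor lay below every normal array. Fabp4 differed by -2.17 with an SE of 0.34 (adjusted p = 0.00137). In control mice the difference was -2.51 (SE 0.42, adjusted p = 0.00457), and in microRNA mice it was -1.63 (SE 0.52) and did not pass (adjusted p = 0.106). That difference was called with the replicate block (adjusted p = 0.0373), with the file-name number as a random block (adjusted p = 0.0461) and without control tumor 6 (adjusted p = 0.0468).

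Pparg, the receptor that governs fat cell differentiation, is also high in differentiated colon epithelium. Its levels were 2.78 and 2.54 in the microRNA-treated tumors, ran from 1.64 over a median of 2.59 to 4.66 in the control tumors, were 4.56 and 4.49 in microRNA-treated normal tissue, and were 3.91 and 4.70 in control normal tissue. Control tumors 1 and 5, at 4.66 and 4.35, lay within the range of normal tissue, and the other 7 tumors lay below it. The tumor effect of -1.64 (SE 0.55, adjusted p = 0.039) was near the threshold. It was lost when any of 10 of the 13 arrays was left out, after quantile normalization (-1.40, adjusted p = 0.074) and with no scaling between arrays (-0.65, adjusted p = 0.317).

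**Figure D2:**
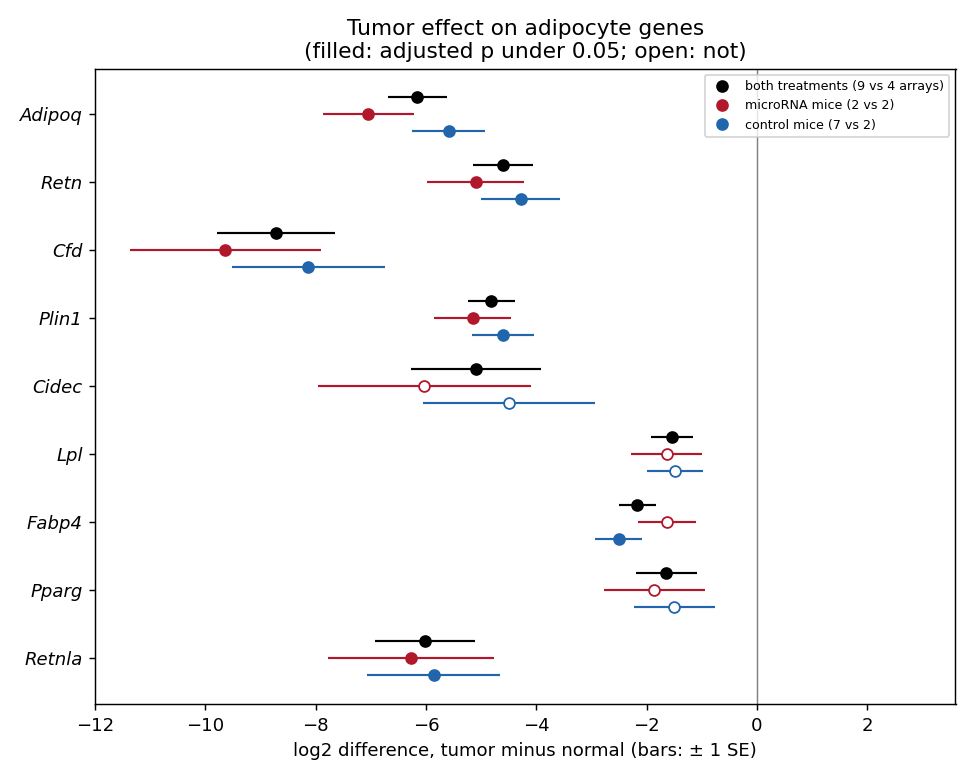
Log2 differences, tumor minus normal, of the 9 tested genes with bars of 1 SE, for both treatments together (black), microRNA mice (red) and control mice (blue), with filled points where the adjusted p was under 0.05. All 27 points lie below 0, and the sizes for Cfd, Adipoq and Plin1 rest on tumors that were nearly all not well above background.

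Within each treatment, 5 of the 9 tested genes fell in tumors of microRNA mice (Cfd, Adipoq, Retn, Retnla and Plin1), where 1.76% of all genes were called lower. In control mice 6 of the 9 fell, the same 5 and Fabp4, where 10.9% of all genes were called lower. Plin1, Cfd and Adipoq passed the filter only through normal tissue and add no support to either count. Cfd and Adipoq were each well above background in 0 of 2 tumors of microRNA mice and 1 of 7 of control mice. Both comparisons rest on 2 normal arrays. The count in control mice was 3 without control normal 1 and 2 without control normal 2. The count in microRNA mice was 2 without microRNA tumor 1 or microRNA normal 1, and 3 without microRNA tumor 2 or microRNA normal 2. On slide 2, with 2 tumors and 3 normal samples, 8 of the 9 genes were called over both treatments, with Cfd at -9.13, Adipoq at -6.56 and Plin1 at -5.34. On slide 1, with 7 tumors and a single normal sample, the differences of Cfd (-8.97), Adipoq (-6.94) and Plin1 (-5.11) were of like size and 0 genes were called.

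The microRNA treatment was compared with the control in each tissue, the question the injections were designed around. None of the 9 tested adipocyte genes was called in any of these comparisons, and none had an unadjusted p under 0.05. Over both tissues the differences, microRNA minus control, ran from -0.67 (Adipoq, SE 0.53) to 0.20 (Cidec, SE 1.18), with 0% of all genes called and 2.26% at an unadjusted p under 0.05. In tumors they ran from -1.24 (Adipoq) to 0.47 (Fabp4), with 0.00394% of all genes called and 2.1% at an unadjusted p under 0.05. In normal tissue they ran from -0.42 (Retnla) to 1.13 (Cidec), against 0.532% called and 5.5% unadjusted.

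The tumor effect itself was compared between the treatments, as microRNA mice minus control mice. Across the 9 genes this difference ran from -1.54 (Cidec) to 0.88 (Fabp4), and none was called, against 0.28% of all genes called and 6.19% at an unadjusted p under 0.05. With 2 microRNA arrays in each tissue the intervals of these comparisons are wide. The SE of the microRNA effect over both tissues was 1.07 for Cfd and 0.34 for Fabp4. The difference between tumor effects has its own SE, from another model. For Car3, another adipocyte gene, it was 1.46, against 0.75 for the microRNA effect over both tissues. The tests thus do not show that the treatments act alike.

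**Figure D3:**
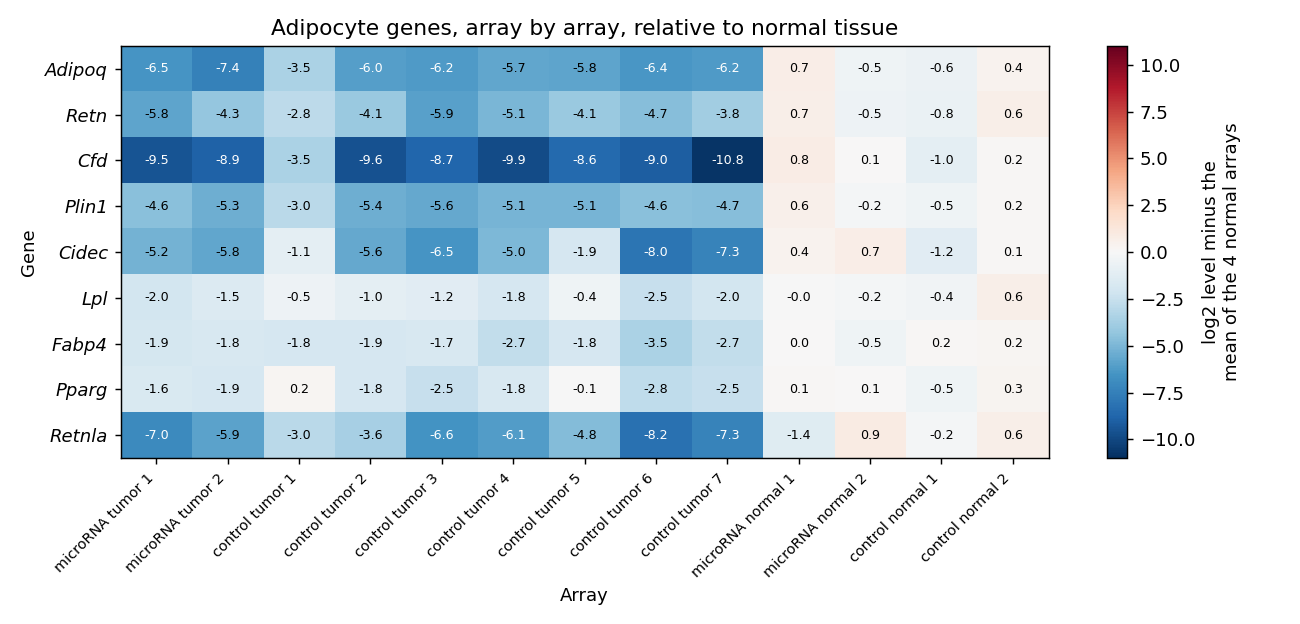
Log2 level of the 9 tested genes (rows) on each array (columns) minus the gene's mean over the 4 normal arrays, with blue for lower. The column of control tumor 1 is paler than those of the other tumors, and in control tumor 5 Cidec, Lpl and Pparg are pale while Cfd, Adipoq and Plin1 are not.

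Tumors differed among themselves in a way that split the genes. Control tumor 1 was the highest of the 7 control tumors for 7 of the 9 tested genes, and ranked after control tumor 5 for Lpl and after control tumor 3 for Fabp4. In control tumor 5 Pparg (4.35), Lpl (1.16) and Cidec (0.02) were high, whereas Adipoq (-5.02), Cfd (-4.78) and Plin1 (-6.63) were not well above background. Retn (-3.69) and Retnla (-3.14) were well above background there, within the range of the 5 control tumors other than 1 and 5. On its other probe Retn was well above background in control tumors 1 and 5 and in no other tumor. Markers of absorptive colonocytes were highest among tumors on the same 2 arrays: their mean level was 5.33 in control tumor 1 and 4.89 in control tumor 5, against 1.41 to 4.20 in the other 7 tumors and 5.44 to 6.2 in normal tissue. The part of these cells in the levels of Cidec, Lpl and Pparg was not tested.

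**Figure D4:**
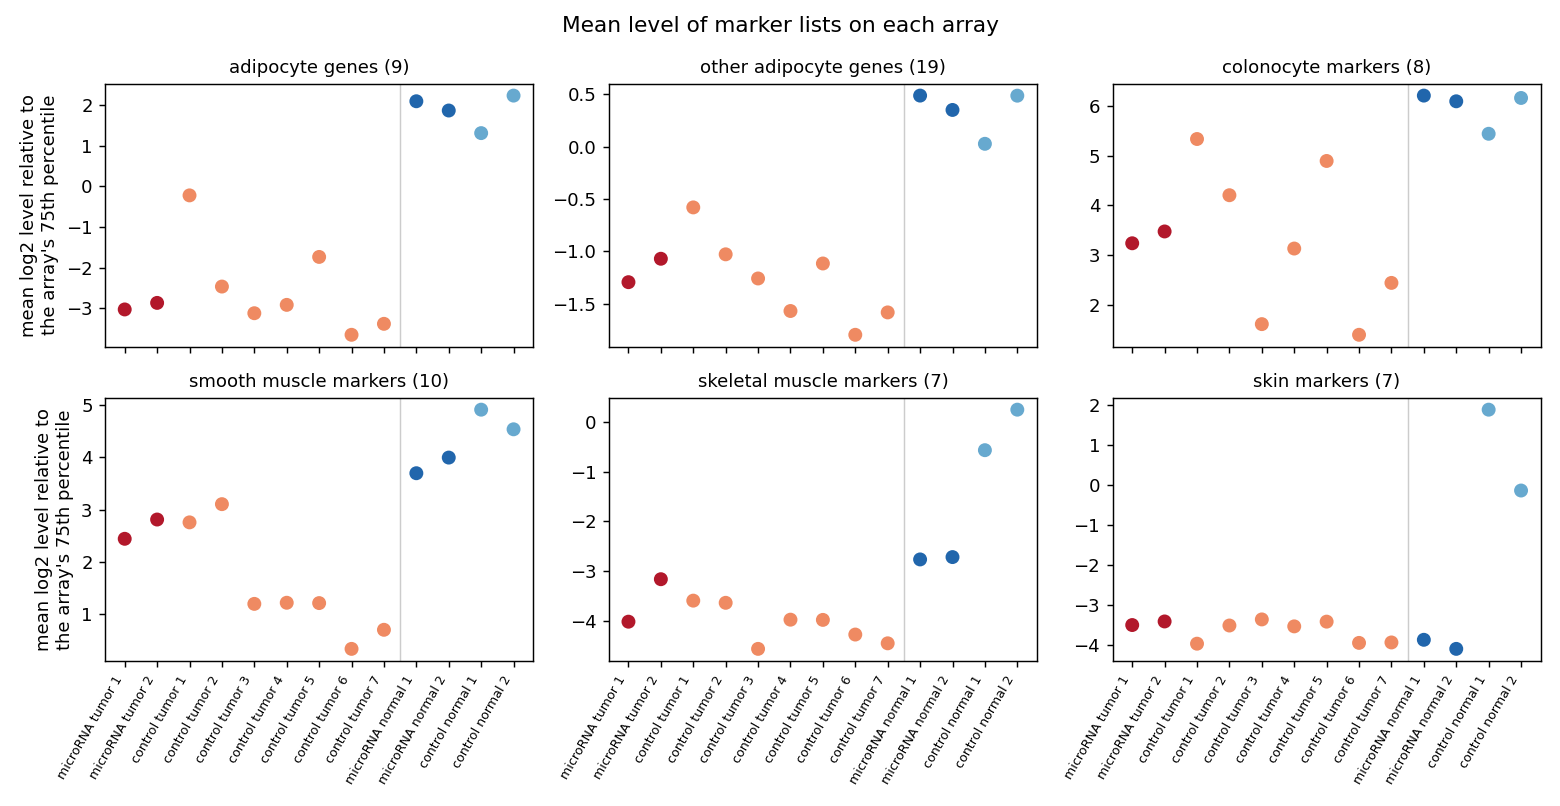
Mean log2 level, relative to the array's 75th percentile, of 6 marker lists on each array, with tumors left of the grey line and normal tissue right of it. Adipocyte, smooth muscle and skeletal muscle lists are higher on all 4 normal arrays than on any tumor. Skin and skeletal muscle lists are highest in control normal tissue.

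In a wider list of 19 adipocyte genes, 15 fell in tumors and 0 rose, against 19.7% and 11.7% of all genes. The median was -1.05 beside -0.11 for all genes. Car3, a carbonic anhydrase abundant in fat and muscle, differed by -6.74 (SE 0.75, adjusted p = 0.000191). Its level was -4.82 and -5.18 in microRNA-treated tumors and -4.86 to -0.31 in control tumors, against 3.38 and 2.77 in microRNA-treated and 2.15 and 2.90 in control normal tissue, and its highest tumor was again control tumor 1. Falls were also called in Thrsp, a regulator of lipogenesis (-2.79), Plin4, another droplet coat protein (-3.39), and Mrap, an accessory protein of the corticotropin receptor (-2.11). The lipases Lipe (-0.97) and Pnpla2 (-0.65) fell, but with no scaling between arrays these and 3 more of the 15 were above 0, at 0.03 and 0.35 for the named ones. Dgat2, which completes triglyceride synthesis, was at -0.12 (adjusted p = 0.871). The other genes not called were Adig at -0.79 (adjusted p = 0.0674), Pde3b at 0.86 (adjusted p = 0.108) and Lgals12 at 0.57 (adjusted p = 0.151). The summed linear level of the list was 45.27 to 48.23 in microRNA-treated tumors and 40.47 to 88.99 in control tumors, against 105 to 111.1 in microRNA-treated and 55.4 to 90.85 in control normal tissue.

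Genes of fatty acid and lipid synthesis are used by most cells. Of 13 measured, 2 fell (Gpam at -1.07 and Me1 at -1.77), and 1 rose (Scd2 at 0.54), with a median of -0.43. Among all genes 19.7% were called lower and 11.7% higher. Of the regulators of fat cell differentiation, 2 of the 6 measured fell (Klf15 at -1.43 and Rxra, the partner of Pparg, at -1.17) and 2 rose (Cebpb at 0.53 and Cebpd at 0.85). Of 9 other targets of the PPAR receptors, 6 fell and 0 rose, among them Fabp1 (-3.55), which is also a gene of gut epithelium, and Acot2 (-0.91), which was at 0.08 with no scaling between arrays.

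Of the 6 receptor genes of these hormones, 1 fell and 2 rose, where 19.7% of all genes were called lower and 11.7% higher. The adiponectin receptor Adipor2 was at -0.62, though at 0.37 with no scaling between arrays, the adiponectin-binding cadherin Cdh13 at 1.71, and Tlr4, to which resistin can bind, at 0.59. The leptin receptor Lepr was at -0.87 (adjusted p = 0.08), Adipor1 at -0.43 (adjusted p = 0.0811) and Cap1 at -0.01 (adjusted p = 0.959). Among regulators of lipoprotein lipase, the inhibitor Angptl4 rose (1.05), and the inhibitor Apoc3 (-4.08) and the activator Apoc2 (-0.76, but 0.23 with no scaling between arrays) fell. Gpihbp1, the capillary anchor of the enzyme, was at -0.31 and its maturation factor Lmf1 at -0.19, and neither passed (adjusted p = 0.337 and 0.322).

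The other resistin family genes were measured too. Retnlg, a member found in myeloid cells, rose by 3.19 (SE 0.47, adjusted p = 0.00103). Its levels were 0.78 and -0.95 in microRNA-treated tumors and -0.95 to 1.29 in control tumors, against -3.77 and -2.59 in microRNA-treated and -3.68 and -2.09 in control normal tissue, with no overlap. Retnlb, the goblet cell member, was at -2.95 (SE 1.08) and did not pass (adjusted p = 0.0542), with control tumors spread from -0.06 to 7.17.

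Other tissues of the outer gut and its surroundings were measured the same way, beside 19.7% of all genes called lower and 11.7% higher. All 10 smooth muscle genes fell, with a median of -2.46, and their summed level was 224.2 to 240.6 in microRNA-treated tumors and 43.34 to 260.6 in control tumors, against 433.4 to 469.2 in microRNA-treated and 756.3 to 1059 in control normal tissue. Of 7 skeletal muscle genes 6 fell, among them Ckm (-4.48) and Myh1 (-3.48), and of 7 skin genes 5 fell. The summed level of the skin genes was 1.751 to 4.874 and 1.404 to 3.508 in the microRNA-treated and control tumors, against 1.489 to 2.27 in microRNA-treated and 8.934 to 31.72 in control normal tissue. The summed skin level was thus high in control normal tissue only, whereas Adipoq, Cfd and Plin1 were well above background in normal tissue of both treatments. In normal tissue, 2 arrays against 2, 5 of the 7 skin genes were called lower with the microRNAs than in controls. In that comparison 0.532% of all genes were called in either direction. Krt14 did not follow the sum, at 1.72 in microRNA tumor 1 against 0.09 and -0.72 in control normal tissue. Of 4 measured mesothelial genes, 2 fell (Muc16 at -4.42 and Gpm6a at -1.90), while Msln, a defining marker, was at 2.20 (adjusted p = 0.0817).

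Cell types that share members with the adipocyte were also counted, beside the same 19.7% of all genes called lower and 11.7% higher. Of 8 endothelial genes 1 fell (Cldn5 at -0.96, though at 0.03 with no scaling between arrays) and 1 rose (Egfl7 at 0.54), and of 11 macrophage genes 0 fell and 2 rose (Arg1 at 3.24 and Chil3 at 3.24), which are markers of alternative activation like Retnla. Of 7 genes of the stroma of fat, 3 rose (Pdgfra at 1.15, Pdgfrb at 1.11 and Ly6a at 0.91) and 1 fell (Dpp4 at -1.45). Of 8 colonocyte genes 6 fell, among them Aqp8 (-4.47) and Slc26a3 (-4.08), and of 5 B cell genes 2 fell (Cd79b at -2.46 and Cd79a at -1.84). Their mean level was -2.26 and -0.74 in microRNA-treated tumors and -4.54 to 0.13 in control tumors, against -1.25 and -1.81 in microRNA-treated and 1.84 and 0.75 in control normal tissue. In microRNA mice 0 of the 5 were called (median 0.22), where 1.76% of all genes were called lower. In control mice all 5 fell (median -4.17), where 10.9% of all genes were called lower. The difference between these tumor effects was called in limma for 0 of the 5, against 0.28% of all genes. All 5 had an unadjusted p under 0.05 for it, against 6.19% of all genes. In the brown fat list, 4 of 9 measured genes fell and 2 rose; Cox8b (-3.20), Cox7a1 (-2.89) and Fabp3 (-1.98) are also genes of striated muscle, and Dio2 rose by 3.12. Neither of 2 acinar pancreas genes was called, with Ctrb1 at -0.36 and Cela1 at -0.85. The part of these tissues in the adipocyte result was not tested.

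Likeness of pattern was measured as the root mean square difference between profiles over the 13 arrays, each centred on its own mean, across 16814 genes with an official symbol. Profiles were not scaled to equal spread, so the distance also follows the size of a gene's changes. One profile was the mean of Cfd, Adipoq, Retn, Plin1 and Cidec. The members lay from 0.57 (Adipoq) to 2.15 (Lpl, with an SD of 0.94 over the arrays) from it on the log2 scale. Cfd, 1 of these 5 genes, lay at 1.96 (SD 4.53), beside 1.94 for Fabp4 (SD 1.18) and 1.99 for Pparg (SD 1.19). For each of those 5 genes the mean left out the gene itself, so its reference differed from that of the other members. The genes nearest to it were Car3 at 0.65, Gm5460 at 0.73 and Apol10b at 0.83, followed by Ugt2b38, ccdc198, Cst6, Gm8909, 1700057G04Rik, Pcp4 and Slc37a2 up to 1.01. Nearest to Fabp4 were the retinol carrier Rbp7 at 0.28, Gstt1, the fatty acid transporter Cd36, Arl4d and Crip1. Nearest to Pparg were Gpr160 at 0.23, Stard5, Ociad2, Ikzf2 and the guanylin receptor Gucy2c, a gene of gut epithelium. Nearest to Lpl were 1500026H17Rik at 0.31, Nudt4, Ech1, Calml4 and Cisd1, and nearest to Retnla were Slc37a2 at 0.67, Slc30a10, Sult1a1, Ckm and Syce3.

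Since the members moved together between tissues, the 250 bases before their start sites were read from the RefSeq promoters of GRCm38.p6, in which 8 of the 10 genes were matched, with 11 promoters. Fabp4 and Lpl were not matched. Motifs were searched on both strands and may overlap. The C/EBP core TTNCNNAA was present in 7 of the 11 promoters, against 36.8% of all 32851 promoters, and the nuclear receptor half-site AGGTCA in 3 of 11, against 14%. A direct repeat of AGGNCA with 1 base between the copies was found in 0 of 11, against 0.338%. CCAAT was present in 3 of 11, against 33.8%, and TATAAA in 2 of 11, against 12.4%.

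The promoters of Plin1 and Adipoq are printed as those of the members with the smallest p in tumors, with the C/EBP core letters in capitals. They lie at chr7:79732777-79733026 on the minus strand and at chr16:23146286-23146535 on the plus strand of GRCm38.p6. Plin1 holds the core at 3 places, and Adipoq at 1 place. A match is only a run of these letters, and no binding was measured.

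Plin1 promoter: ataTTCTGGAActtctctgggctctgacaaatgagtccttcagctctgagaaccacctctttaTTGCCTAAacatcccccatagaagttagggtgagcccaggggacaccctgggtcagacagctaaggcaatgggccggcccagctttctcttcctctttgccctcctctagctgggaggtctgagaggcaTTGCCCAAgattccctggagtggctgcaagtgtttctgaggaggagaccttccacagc

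Adipoq promoter: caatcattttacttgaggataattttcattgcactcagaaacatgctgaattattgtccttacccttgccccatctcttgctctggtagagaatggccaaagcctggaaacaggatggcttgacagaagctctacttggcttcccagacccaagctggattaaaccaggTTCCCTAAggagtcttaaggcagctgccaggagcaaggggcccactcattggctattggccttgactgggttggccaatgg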

How the data were processed

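Cy3-labelled RNA of each sample (35 ng of input, per the labels) was hybridized to a 1-colour mouse array. The scanner software was Feature Extraction 10.7.3.1, per the file headers. The deposited intensity is the processed signal on a linear scale, background-subtracted by the authors and not scaled between arrays. The deposited mean and background intensity served 1 alternative. Control spots (3671) were left out, spots marked non-uniform or as outliers were set to missing, and log2 intensity was reduced by the log2 of each array's 75th percentile. Probes had to be well above background on 2 or more arrays, which kept 35189, and the brightest one stood for its gene, which gave 25393 genes, 16845 with an official symbol.

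Tests were run with lmFit and eBayes of limma 3.58.1 (R 4.3.3, data.table version 1.17.8) on all 13 arrays, with Benjamini-Hochberg adjustment over all genes. An additive model gave the effects over both tissues or treatments, and a model of 4 group means gave the others. A fold is a lower bound, from the detection floor, where all arrays of the lower group failed to be well above background. The number of arrays limits the precision. The procedure was tested on simulated data. Probe coordinates are the files' own on mm9; no genome was used. Plots were made in Python 3.11.15 using matplotlib 3.10.9.

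The members and lists were chosen with earlier results of these data known. The text names all members, up to 4 genes of each other list with the smallest p in tumors, the receptors, lipase regulators and resistin family genes, and the 10 or 5 genes nearest in pattern. Lipe, Pnpla2, Dgat2, Adig, Pde3b, Lgals12 and Acot2 are named beyond that rule, chosen after their values were seen. Some genes that the rule takes are not reported here.

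Alternatives were normexp correction (offset 50), quantile normalization, median scaling, no scaling, no filter, a filter by group, the mean of probes, single probes, only the compared groups, trend and robust eBayes, slide as a block, each slide alone, file-name number as a random block, the replicate block and each array left out.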

Additional observations from a re-analysis of the deposited data

Results flagged for a closer look

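Control tumor 1 stood apart from the other 6 control tumors in Cfd (0.33), Adipoq (-2.77) and Plin1 (-4.52), where its gap to the next tumor was too large a share of the group's range for 7 samples. These were 3 of 10 genes examined in that group, and chance marks about 1 group in 20. The next highest control tumor had -4.78 for Cfd, -4.99 for Adipoq and -6.18 for Plin1. Plin1 was not well above background on any control tumor, control tumor 1 included, and Cfd and Adipoq not on the other 6, so these gaps rest on dim readings and have no exact size. In the same sample Car3 was at -0.31, the mean level of the 19 other adipocyte genes was -0.58, against -1.80 to -1.03 in the other 8 tumors, and the mean level of the colonocyte markers was 5.33. The cause was not tested.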

How the results depend on the processing

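Falls over both treatments kept their direction under all alternatives run. The count of called members was 0 with slide 1 alone, both over both treatments and in microRNA mice, where 1 normal array remained, and 3 in control mice with the replicate block (Adipoq, Fabp4 and Plin1). With each array left out in turn it was 7 to 9 over both treatments, 2 to 6 in microRNA mice and 2 to 8 in control mice, lowest there without control normal 2; without control normal 1 it was 3. Tumor and normal samples of the same replicate number deviated together in microRNA mice (correlation 0.42) but not in control mice (-0.137 and -0.095). No label pairs them. With 2 arrays in each microRNA group the deviations mirror each other, so 0.42 is a single value. Those microRNA samples also shared a slide and a file-name number, which the control ones did not. Pairing and slide thus cannot be told apart, and the treatments are not compared like with like. The replicate block left 7 members called over both treatments, without Lpl (-1.26, adjusted p = 0.0503) and Pparg (-1.27, adjusted p = 0.127), and in microRNA mice it added Fabp4 (adjusted p = 0.0373). Normexp correction made the falls smaller, at -6.16 for Cfd, -3.40 for Adipoq, -2.86 for Retn, -3.87 for Retnla and -1.96 for Plin1, and they remained called; its offset raises dim signals. Without the filter Lep was called too (10 members). None of its spots was well above background on any array. Its dim readings were scaled by a percentile that was lower on normal arrays (213.9 to 319.6) than on tumor arrays (414.8 to 739.6). That call therefore cannot show a fall in Lep and adds no support to the count.

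Reversals were limited to microRNA effects that were not called. Cidec over both tissues was -0.025 with the mean of probes, -0.93 on slide 1, -0.49 with the replicate block, -0.25 on its other probe and -0.09, -0.02 and -0.15 without control tumor 6, control tumor 7 and control normal 1 (range over single arrays left out -0.15 to 0.61). On slide 2 alone Adipoq over both tissues was 0.35, Fabp4 in tumors -0.19, and the difference between tumor effects -0.035 for Fabp4 and 0.33 for Cidec. Retnla in normal tissue was 0.73 without microRNA normal 1 (range -1.56 to 0.73).

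Of all genes, 7973 were called over both treatments, against 15260 unscaled, 12143 with normexp, 12978 unfiltered, 2831 with the replicate block, 4913 and 10 on slides 2 and 1, and 4653 and 3833 without control normal 1 and 2. The consensus correlation by file-name number was 0.35.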
